A study of Mus musculus with 6 samples.

Results

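Transcripts of the proteasome and of the ubiquitin-conjugating enzymes were compared in sorted mouse bone marrow with and without an induced loss of Zeb2, which encodes a zinc-finger transcription factor. The genes were chosen by a rule on symbols, set with earlier results of these data known. Symbols that start with Psm, a letter from a to g and a digit, or with Ube2, were taken, and Ube2c was left out. Of 10366 genes with a probe set of their own, 68 matched, 46 of them Psm genes and 22 of them Ube2 genes. The probe set with the highest mean was used where a gene had several. Not every match belongs to the pathway. Psmc3ip encodes a partner of meiotic recombinases, Psme3ip1 a protein that binds Psme3, and Ube2cbp, also called Ube3d, a ligase that binds Ube2c.

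The proteasome is the cell's main machine for destroying proteins tagged with ubiquitin. Its barrel is built from alpha and beta rings, the beta rings hold the cutting sites, and a cap of ATPases and further subunits recognises, unfolds and feeds the substrate. Ubiquitin reaches its target through an activating enzyme (E1), a conjugating enzyme (E2, the Ube2 genes) and a ligase (E3). Interferon can replace the cutting subunits Psmb6, Psmb7 and Psmb5 by Psmb9, Psmb10 and Psmb8, which gives the immunoproteasome, known for making peptides for MHC class I.

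LKS-Slam cells, a sorted fraction highly enriched for hematopoietic stem cells, were profiled on whole-transcript arrays, 3 arrays from mice of genotype Zeb2Δ/ΔMx1-Cre (labelled Zeb2-KO here) and 3 from C57Bl/6 WT mice. Mice of both groups received polyinosinic-polycytidylic acid (pIC), which induces interferon, at 6 weeks of age, and marrow was taken 8 weeks later, at 14 weeks. Mx1-Cre is driven by an interferon-responsive promoter. The WT labels name no Mx1-Cre, so the effects of Cre and of the deletion cannot be told apart. The labels name the samples of a group as biological replicates. Levels below are log2 intensities, which can be compared between arrays for 1 gene but not between genes. Differences are Zeb2-KO minus WT.

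Zeb2 itself ran against the label, with 7.79, 9.13 and 8.96 in Zeb2-KO replicates 1 to 3 against 6.58, 7.51 and 7.34 in those of WT, and its probe set may lie outside the deleted part. Every direction below therefore rests on the labels. Over 4 measured surface genes used to sort or mark stem cells (Kit, Slamf1, Cd48 and Procr), the mean level was 7.74 to 8.09 in Zeb2-KO. In WT it was 7.25 to 8.12. That mean joins genes with opposite directions and does not measure how well the sorting gate was met. Kit (0.53) and Slamf1 (1.30) lay higher, and Cd48 (-1.02) and Procr (-0.45) lower, each without overlap between the groups (adjusted p in limma 0.656 to 0.673). B cell markers (8 measured of 10 listed) averaged 6.33 to 7.01 against 7.06 to 8.02, and markers of monocytes and dendritic cells (9) 7.47 to 8.02 against 7.93 to 8.40. Megakaryocyte markers (7) averaged 8.00 to 8.83 against 6.59 to 7.34, and erythroid markers (4) 7.71 to 8.62 against 7.16 to 7.29. Granulocyte markers (5) averaged 5.82 to 6.62 against 5.75 to 5.92, and T and NK cell markers (4) 5.44 to 5.98 against 5.32 to 5.65. Proliferation genes (5) averaged 8.55 to 9.11 against 7.84 to 8.86. Fewer cells of a type and less RNA per cell cannot be told apart in bulk samples. Y-linked Eif2s3y stood at 6.46 in Zeb2-KO replicate 1 and 5.20 in WT replicate 1, and at 3.10 to 3.38 in the other arrays. X-linked Xist stood at 8.15 in Zeb2-KO replicate 1, 9.70 in WT replicate 1 and 10.70 to 11.09 in the other arrays. The sex of the mice behind each array was not tested. WT replicate 1 correlated least with the other arrays (mean 0.841, against 0.886 to 0.908).

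Most of the proteasome and E2 genes lay higher in the arrays labelled Zeb2-KO, but no member passed the test. The median difference was 0.56 over 45 Psm genes (without Psmc3ip) and 0.44 over 22 Ube2 genes, where that of all 14610 probe sets was -0.09. Of the 68 members 55 had a difference above 0, as did 44.6% of all probe sets, dim ones included. None passed an adjusted p of 0.05 in limma, a test that 0.0137% of all probe sets passed, and the members' adjusted p ran from 0.602 to 0.950. At an unadjusted p under 0.05 lay 13 members on the higher side, where the background is 5.69%, and 1 on the lower side, where it is 1.33%. These 14 are 20.6% of the members. The groups stood apart without overlap in 9 members that lay higher and 4 that lay lower, where 6.9% and 6.26% of all probe sets did so.

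The higher side of these counts depended on the scaling. With quantile normalization 6 members lay above and 2 below at that p, where 4.41% and 1.88% of all probe sets did. With cyclic loess these counts were 5 and 3 (4.91% and 2.05%). They were 2 and 4 (2.51% and 2.63%) once the fit held a covariate for array spread, the interquartile range of log2 values, so the higher side was then near its background. That covariate left a median difference of 0.058 over the Psm genes and 0.039 over the Ube2 genes. Leaving out 1 array moved the count of 14 to 5 (without Zeb2-KO replicate 2, where 3.68% of all probe sets reached that p), 6 (without WT replicate 1, 4.98%), 9 (when replicate 3 of Zeb2-KO or of WT was dropped, 5.03% and 6.34%), 17 (without Zeb2-KO replicate 1, 11.2%) or 23 (without WT replicate 2, 11.4%). With weights that limma estimates for each array, 11 members passed the adjusted threshold, 10 higher and 1 lower, as did 978 of all probe sets.

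**Figure D1:**
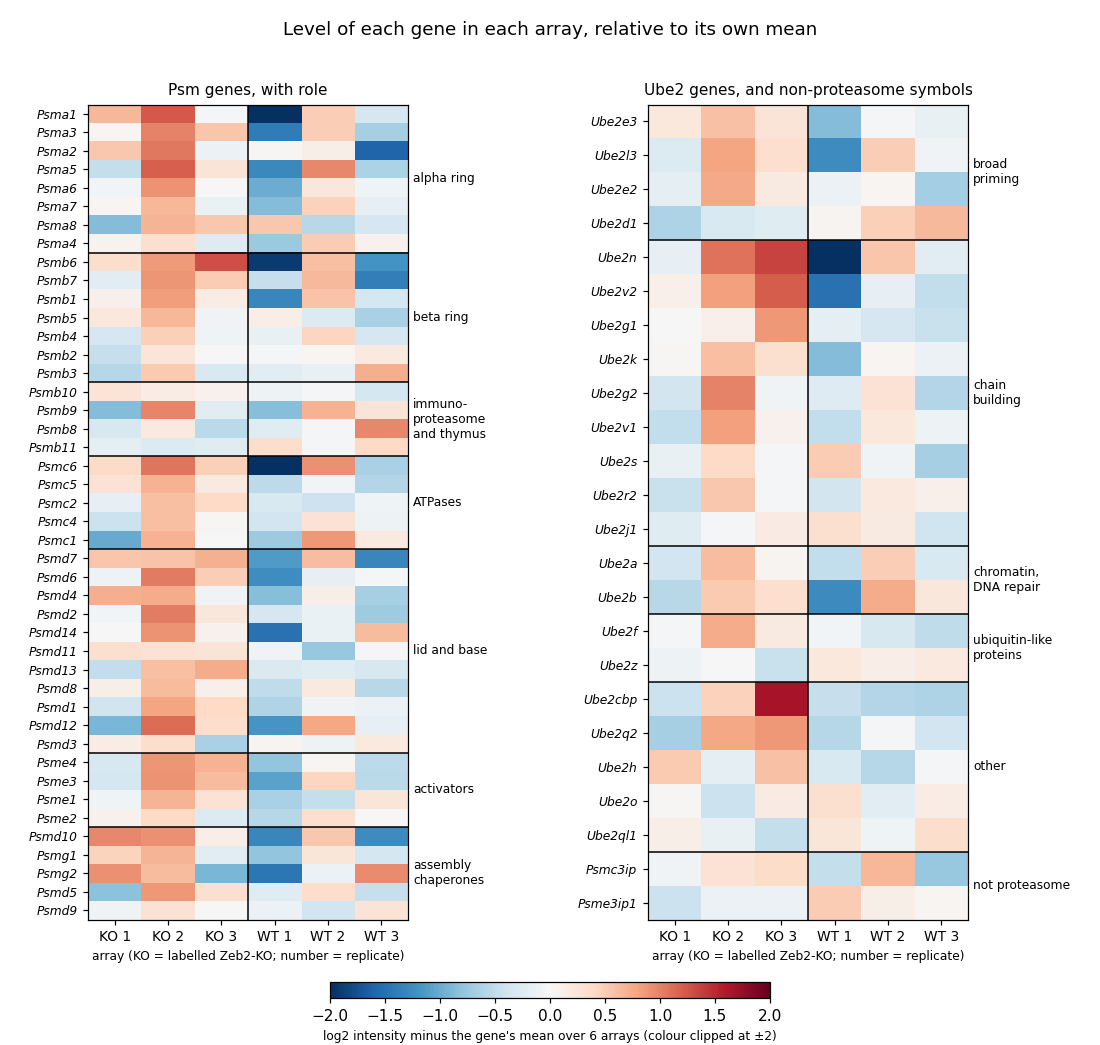
Heat maps of 68 genes (rows, by role) in 6 arrays (columns). Colour gives the log2 intensity minus the gene's own mean over the arrays. Zeb2-KO replicate 2 is the highest array in 41 genes and WT replicate 1 the lowest in 29.

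The arrays varied within their groups as well as between them. The median level of the Psm genes was 8.10, 9.0 and 8.43 in the Zeb2-KO arrays, in replicate order, against 7.53, 8.40 and 7.80 in the WT arrays. Zeb2-KO replicate 1 therefore lay below WT replicate 2. For the Ube2 genes the medians were 7.15, 7.87 and 7.79 against 6.93, 7.43 and 7.12, again with overlap. Zeb2-KO replicate 2 was the highest array for 32 of the 45 Psm genes, and WT replicate 1 the lowest for 21.

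The spread of each array moved with these levels. The interquartile range of all log2 values was 1.83, 2.40 and 2.11 in the Zeb2-KO arrays against 1.59, 2.03 and 1.77 in the WT arrays. Ranked by spread, by Psm median or by Ube2 median, the arrays fall in the same order, from WT replicate 1 up to Zeb2-KO replicate 2. Array medians of all probe sets lay within 6.56 to 6.63. In the fit with array spread 24 of 45 Psm genes and 11 of 22 Ube2 genes lay above 0.

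**Figure D2:**
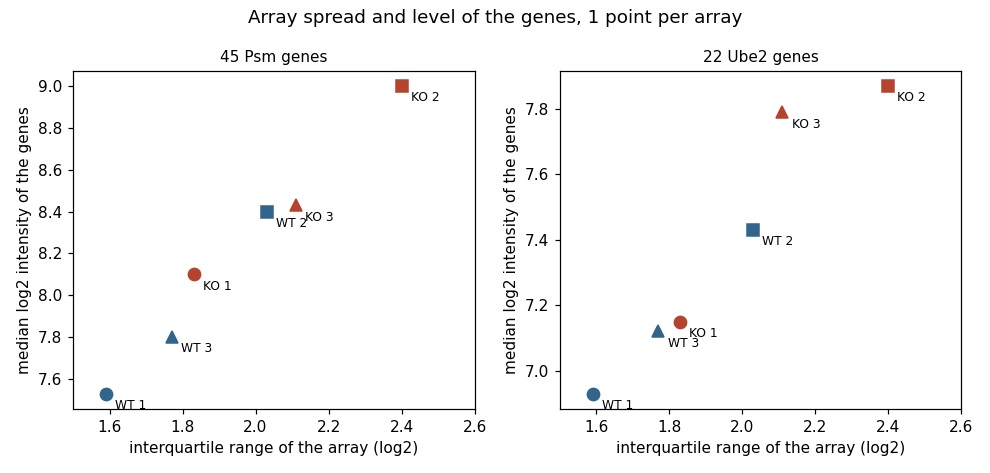
Median log2 intensity of 45 Psm genes (left) and 22 Ube2 genes (right) against the interquartile range of all log2 values of the array, 1 point per array. In both panels the arrays rise in the same order, from WT replicate 1 at a range of 1.59 to Zeb2-KO replicate 2 at 2.40.

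The alpha ring forms the gated entrance of the barrel. All 8 of its genes lay higher, with differences from 0.10 to 1.26 and a median of 0.60. In the fit with array spread 3 lay above 0 and 5 below, with a median of -0.06. Psma1 stood at 9.22, 9.78 and 8.53 in the arrays labelled Zeb2-KO, against 6.50, 9.04 and 8.22 in WT. The groups overlapped, and WT replicate 1 stood far below the other arrays. Its difference was 1.26 (SE 0.57, adjusted p = 0.673), and 0.55 without WT replicate 1. Psma4, at 9.55, 9.81 and 9.22 against 8.74, 9.98 and 9.57, had the smallest difference of the ring, 0.10 (adjusted p = 0.889), and it turned to -0.33 in the fit with array spread. Between them lay Psma3 (1.05), Psma2 (0.98), Psma5 (0.65), Psma6 (0.56), Psma7 (0.38) and Psma8 (0.23), the last a subunit of the testis. The fit with array spread gave -0.57 for Psma5, -0.20 for Psma7, -0.10 for Psma6 and -0.03 for Psma8.

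The beta ring was less uniform. Of its 7 constitutive genes 5 lay higher, led by the cutting subunit Psmb6, and Psmb3 and Psmb2 lay lower. Psmb6, which cuts after acidic residues, stood at 8.71, 9.22 and 9.65 in the arrays labelled Zeb2-KO, against 6.45, 8.97 and 7.17 in WT. WT replicate 2 lay inside the range of the other group. The difference was 1.66 (SE 0.55, 3.16-fold, adjusted p = 0.623), the largest of all 68 members. It was 2.38 without WT replicate 2 (adjusted p = 0.0607), 1.12 without WT replicate 1 and 0.78 in the fit with array spread.

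Psmb7, the subunit that cuts after basic residues, stood at 8.05, 9.14 and 8.76 against 7.80, 8.90 and 6.88. These ranges overlap, and the difference of 0.79 (SE 0.48, adjusted p = 0.673) was 0.30 without WT replicate 3 and 0.06 in the fit with array spread. Psmb5, the subunit that cuts after hydrophobic residues and the target of bortezomib, stood at 8.39, 8.84 and 8.11 against 8.31, 7.90 and 7.53, a difference of 0.54 (SE 0.32, adjusted p = 0.673). WT replicate 1 lay above Zeb2-KO replicate 3. The non-cutting subunits lay at 0.72 (Psmb1), 0.04 (Psmb4), -0.14 (Psmb2) and -0.24 (Psmb3). Psmb3 stood at 7.87, 8.96 and 8.14 against 8.22, 8.29 and 9.17 (SE 0.38, adjusted p = 0.754), and WT replicate 3 was the highest array.

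The interferon-inducible partners of these cutting subunits lay between -0.44 and 0.34. Psmb8 stood at 8.65, 9.16 and 8.43 in the arrays labelled Zeb2-KO, against 8.72, 8.92 and 9.92 in WT, a difference of -0.44 (SE 0.37, adjusted p = 0.673). WT replicate 3 set that difference, which was -0.07 without it. Psmb9 stood at 8.79, 10.64 and 9.45 against 8.80, 10.36 and 9.91, a difference of -0.06 (SE 0.50, adjusted p = 0.946). Its arrays spread far within each group and hardly between them. In the fit with array spread, however, the difference was -1.13 (SE 0.27, unadjusted p in limma 0.00587, adjusted p = 0.972). Psmb10 lay higher, at 7.16, 7.04 and 6.97 against 6.78, 6.84 and 6.53. Its groups did not overlap, yet the difference was small, 0.34 (SE 0.27, adjusted p = 0.673).

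Psmb11, a cutting subunit of the thymus, lay below all WT arrays in each Zeb2-KO array, at 6.39, 6.30 and 6.33 against 6.92, 6.53 and 6.97. Its mean level of 6.57 lay near the array medians of all probe sets (6.56 to 6.63). Whether the gene was expressed in these cells was not tested. The difference was -0.47 (SE 0.28, adjusted p = 0.673) and stayed below 0 in the 20 settings run, from -0.61 to -0.33. Where groups do not overlap, leaving out 1 array cannot change the sign. Settings that change only the estimate of error keep the difference itself, so such a steady sign is partly fixed in advance. Psme1 and Psme2 encode the interferon-inducible activator ring that opens the barrel without ATP. Psme1 stood at 10.26, 11.02 and 10.64 against 9.69, 9.87 and 10.59 (difference 0.59, SE 0.34, adjusted p = 0.673). Psme2 stood at 7.41, 7.71 and 7.05 against 6.75, 7.66 and 7.32 (difference 0.15, SE 0.33, adjusted p = 0.817). Both overlapped between the groups.

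Over the 5 immunoproteasome genes Psmb8, Psmb9, Psmb10, Psme1 and Psme2 the median difference was 0.15, and it changed sign to -0.21 in the fit with array spread, to -0.185 with array weights, to -0.10 without WT replicate 1, to -0.013 without Zeb2-KO replicate 2 and to -0.094 without replicate 1 of both groups, the arrays with Y-linked signal. Markers of B cells and of monocytes and dendritic cells, which are rich in the immunoproteasome, had median differences of -0.75 (8 of 8 below 0) and -0.42 (8 of 9 below 0). Their part in the immunoproteasome values was not tested.

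Within each array the constitutive subunit can be set against its partner, which removes a shift of equal size in both. An array effect that is unequal between partners remains. The fit with array spread took Psmb7 from 0.79 to 0.06, for example, and Psmb10 from 0.34 to 0.35. The log2 ratio of Psmb5 to Psmb8, centred on its mean over the arrays, was 0.53, 0.47 and 0.46 in the Zeb2-KO arrays against 0.37, -0.23 and -1.61 in WT. The groups did not overlap, but WT replicate 1 came close. That of Psmb6 to Psmb9 was 1.21, -0.12 and 1.5 against -1.05, -0.09 and -1.44, with overlap, and that of Psmb7 to Psmb10 was -0.48, 0.73 and 0.42 against -0.35, 0.70 and -1.02, with overlap. The group differences were 0.98, 1.73 and 0.45. They are given as a description, with no test.

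**Figure D3:**
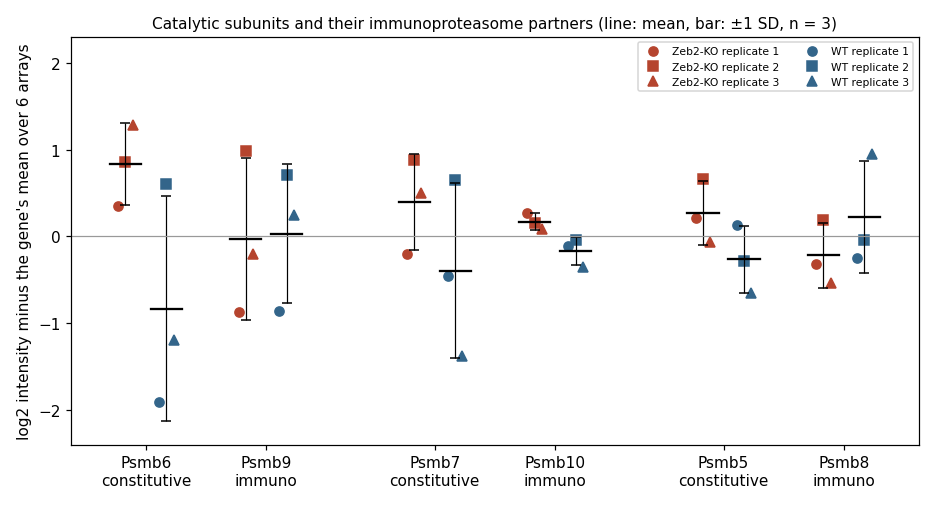
Log2 intensity of 6 cutting subunits minus each gene's mean over the 6 arrays, with the immunoproteasome partner to the right of the constitutive subunit. Points are arrays, lines are means and bars are 1 SD of 3 arrays. Psmb6 differs by 1.66 between the groups and its partner Psmb9 by -0.06.

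The caps that prepare the substrate lay higher for the most part. Of the 5 ATPase genes measured, 4 lay higher. Psmc5 stood at 9.56, 9.96 and 9.45 in the arrays labelled Zeb2-KO, against 8.75, 9.21 and 8.68 in WT, with no overlap. Its difference of 0.78 (SE 0.30, adjusted p = 0.662) ran from 0.50 to 0.95 over the 20 settings. Psmc6 had a wider difference with less steady values, 8.43, 9.13 and 8.53 against 5.85, 8.97 and 7.41 (1.29, SE 0.62, adjusted p = 0.673), and lay at 0.51 without WT replicate 1. Psmc1 lay at 7.58, 9.27 and 8.57 against 7.85, 9.45 and 8.77 (-0.22, SE 0.49, adjusted p = 0.816), with complete overlap. The fit with array spread gave -1.24 for Psmc1 (SE 0.23, unadjusted p in limma 0.00187, adjusted p = 0.972). Psmc2 lay at 0.55 and Psmc4 at 0.13.

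The other cap subunits, the lid and the non-ATPase part of the base, held 4 genes on the higher side with an unadjusted p under 0.05 among 11, where the background is 5.69%. Of the 11, 10 lay higher, and 8 in the fit with array spread. None of the 4, described next, reached that p in the fit with array spread or without WT replicate 1. Psmd7, the partner of the deubiquitinase Psmd14, stood at 9.42, 9.44 and 9.58 in the arrays labelled Zeb2-KO, against 7.73, 9.49 and 7.56 in WT. The first group was tight, while WT replicate 2 matched it and the other WT arrays lay far below. The difference was 1.22 (SE 0.46, adjusted p = 0.662), and 1.84 without WT replicate 2. Psmd4, a ubiquitin receptor, stood at 7.96, 7.98 and 7.17 against 6.39, 7.35 and 6.57 (0.94, SE 0.36, adjusted p = 0.662). Only Zeb2-KO replicate 3 and WT replicate 2 crossed.

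Psmd6, a lid subunit, stood at 8.40, 9.54 and 8.99 against 7.26, 8.33 and 8.46 (0.96, SE 0.40, adjusted p = 0.673), with Zeb2-KO replicate 1 just inside the WT range. Psmd2, the docking subunit for shuttle proteins, stood at 7.86, 8.93 and 8.13 against 7.57, 7.77 and 7.20 (0.79, SE 0.34, adjusted p = 0.673), with no overlap between the groups. Psmd6 lay at 0.58 without WT replicate 1, and Psmd2 at 0.48 without Zeb2-KO replicate 2. Psmd11, which joins the lid to the base, was also free of overlap and lay at 0.58. Psmd14, Psmd8, Psmd13, Psmd1 and Psmd12 lay at 0.67, 0.57, 0.57, 0.53 and 0.37. Psmd3 was the lid gene with the lowest difference, at 6.85, 7.06 and 6.06 against 6.76, 6.61 and 6.90 (-0.10, SE 0.32, adjusted p = 0.870).

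Among the ATP-independent activators, Psme4, which acts in chromatin and DNA repair, stood at 6.98, 8.18 and 8.00 against 6.51, 7.34 and 6.78 (0.85, SE 0.38, adjusted p = 0.673), and Psme3, the nuclear activator, lay at 0.80. Zeb2-KO replicate 1 lay within the WT range of Psme4. The assembly chaperones help subunits into the complex and are not part of it when finished. All 5 lay higher. Psmd10, also called gankyrin, stood at 8.5, 8.44 and 7.67 in the arrays labelled Zeb2-KO, against 6.23, 8.07 and 6.28 in WT (1.35, SE 0.48, adjusted p = 0.656). WT replicates 1 and 3 were low and WT replicate 2 was not, and the difference was 1.95 without the latter. Psmd9 stood at 6.92, 7.28 and 6.99 against 6.87, 6.61 and 7.27 (0.15, SE 0.29, adjusted p = 0.80). Psmg1 lay at 0.61, its partner Psmg2 at 0.42 and Psmd5 at 0.24.

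Psmc3ip, at 7.38, 7.74 and 7.82 against 6.97, 8.11 and 6.70, lay at 0.39 (SE 0.38, adjusted p = 0.676) with overlap. Psme3ip1 lay below all WT arrays in each Zeb2-KO array, at 7.86, 8.17 and 8.17 against 8.79, 8.40 and 8.32 (-0.44, SE 0.28, adjusted p = 0.673). It stayed below 0 in the 20 settings, many of which cannot change that sign. Neither encodes a proteasome subunit.

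**Figure D4:**
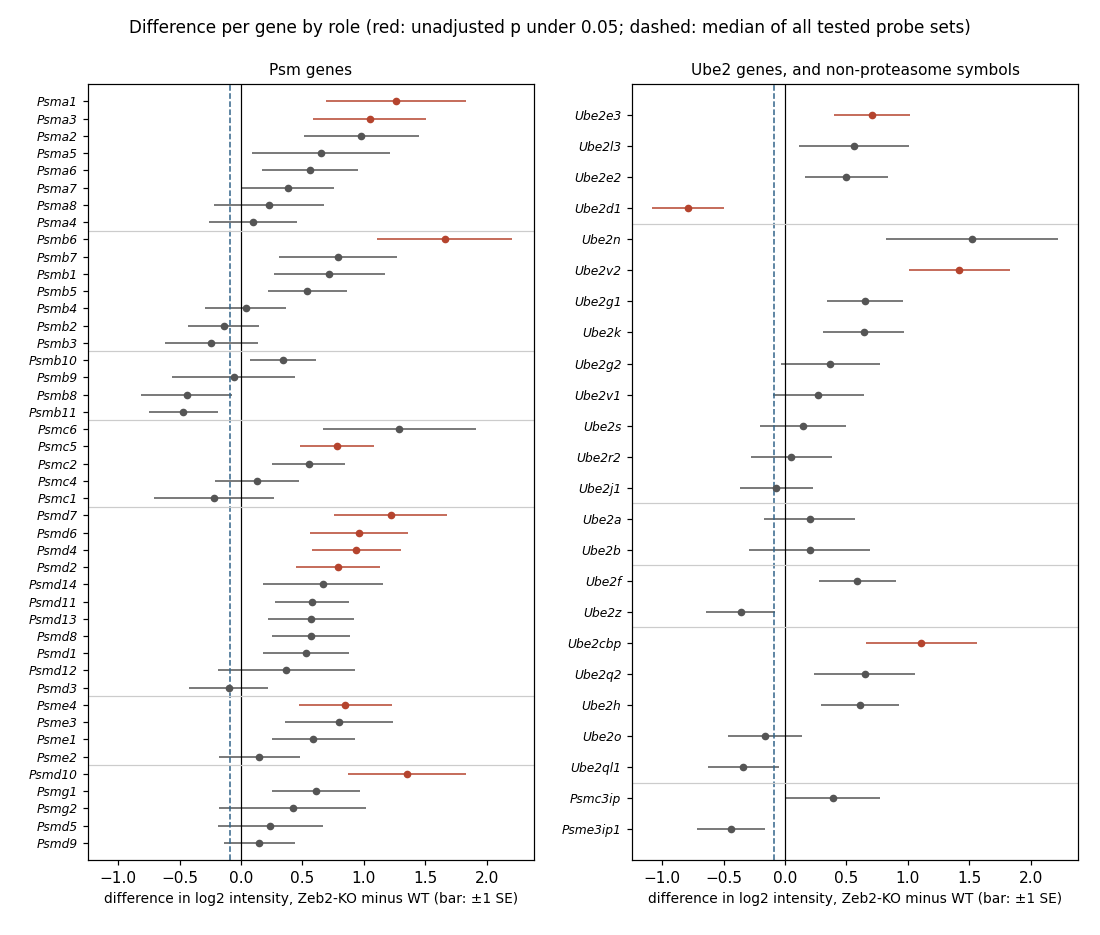
Difference in log2 intensity (Zeb2-KO minus WT) of each gene, with bars of 1 SE, grouped by role as in the heat maps. Red marks an unadjusted p under 0.05, which 13 genes on the higher side and Ube2d1 on the lower side reached. The dashed line is the median of all tested probe sets, -0.09.

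The E2 enzymes that build ubiquitin chains held the member with the smallest p. Ube2v2, which has no active site of its own and pairs with Ube2n to build the chains used in signalling and DNA repair, stood at 7.82, 8.54 and 8.92 in the arrays labelled Zeb2-KO. In WT it stood at 6.23, 7.55 and 7.23, below each array of the other group. The difference was 1.42 (SE 0.41, 2.68-fold, adjusted p = 0.602), and it was 0.82 in the fit with array spread. Another probe set of Ube2v2, described below, overlapped between the groups. Ube2n, the catalytic partner, stood at 7.19, 8.44 and 8.71 against 4.74, 7.91 and 7.13 (1.52, SE 0.70, adjusted p = 0.673). WT replicate 1 was far below all other arrays, and without it the difference was 0.59. Ube2v1, the alternative partner of Ube2n, lay at 0.27.

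Other chain builders lay closer to 0. Ube2g1, which did not overlap between the groups, lay at 0.65, and Ube2k, which builds degradation chains, at 0.64. Ube2g2 (0.37) and Ube2j1 serve the degradation of proteins from the endoplasmic reticulum. Ube2j1 stood at 8.72, 8.94 and 9.13 against 9.29, 9.14 and 8.57 (-0.07, SE 0.30, adjusted p = 0.906). Ube2s, which extends chains for the anaphase-promoting complex, lay at 0.15 and Ube2r2, a partner of cullin ligases, at 0.05.

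Of the E2 enzymes that work with many ligases, Ube2d1 lay lower, the 1 member on that side with an unadjusted p under 0.05. It stood at 7.10, 7.41 and 7.47 in the arrays labelled Zeb2-KO, against 7.77, 8.20 and 8.36 in WT. The groups did not overlap. The difference was -0.79 (SE 0.29, adjusted p = 0.662), a level 1.73-fold lower. It lay below 0 in the 20 settings, many of which cannot change that sign, between -1.01 and -0.66. It was -0.98 with quantile normalization and -1.01 with cyclic loess. With array weights it passed the adjusted threshold (adjusted p = 0.0443), and its adjusted p lay above 0.05 in the other 19 settings. Ube2e3, in contrast, stood at 8.5, 8.87 and 8.54 against 7.41, 8.24 and 8.13 (0.71, SE 0.31, adjusted p = 0.673), again without overlap. Ube2l3, the partner of ligases that pass ubiquitin through a cysteine, lay at 0.56 and Ube2e2 at 0.50.

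Ube2a and Ube2b, near-identical enzymes that mark histone H2B and the sliding clamp of replication, both lay at 0.20. Ube2a stood at 6.13, 7.14 and 6.58 against 6.03, 7.01 and 6.22 (SE 0.37, adjusted p = 0.784) and Ube2b at 7.60, 8.67 and 8.49 against 6.88, 8.90 and 8.38 (SE 0.49, adjusted p = 0.836). Their ranges overlap almost fully, and both turned negative in the fit with array spread, at -0.44 and -0.71.

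The enzymes for ubiquitin-like proteins split. Ube2f, which attaches NEDD8, stood at 6.75, 7.52 and 6.97 against 6.73, 6.46 and 6.28 (0.59, SE 0.31, adjusted p = 0.673). Ube2z, which takes ubiquitin or FAT10 from Uba6, stood at 7.12, 7.22 and 6.77 against 7.43, 7.34 and 7.41 (-0.36, SE 0.28, adjusted p = 0.673). Neither overlapped between the groups, although Ube2f was apart by little in replicate 1 of either group. Each kept its direction in the 20 settings, many of which cannot change it.

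Of the remaining symbols, Ube2cbp stood at 6.52, 7.40 and 8.59 in the arrays labelled Zeb2-KO against 6.48, 6.36 and 6.33 in WT (1.11, SE 0.45, adjusted p = 0.673). The WT arrays were nearly level, the others spread widely, and without Zeb2-KO replicate 3 the difference was 0.57. Ube2h, an E2 of red cell maturation, lay at 0.61, with erythroid markers also higher (median 0.96, 4 of 4), and the part of the latter was not tested. Ube2o, which acts in reticulocytes, lay at -0.16. Ube2ql1 had the lowest difference here, at 6.69, 6.43 and 6.10 against 6.82, 6.50 and 6.93 (-0.34, SE 0.29, adjusted p = 0.673), and Ube2q2 lay at 0.65.

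Several members were measured by more than 1 probe set, and these did not always say the same. The identifiers of the array run mostly in genome order, so the 10 nearest annotated identifiers give a probe set's surroundings. For 59 of the 68 members most of these neighbours were genes of the member's own chromosome. For the other 9, namely Psma3, Psma5, Psmb3, Psmc1, Ube2h, Ube2l3, Ube2s, Ube2v1 and Ube2v2, they were not, which makes it uncertain whether the gene or a near-identical copy was measured. All but Ube2h had a second probe set among genes of their own chromosome. Psma5 changed sign there, from 0.65 to -0.21. Ube2v2 lay at 1.23 in place of 1.42 (adjusted p = 0.662), and its groups overlapped, at 7.90, 8.26 and 8.31 against 7.15, 7.91 and 5.72. Its unadjusted p in limma was 0.0256 there, larger than that of Psmb6 (0.0117). Psmb3 lay at -0.53 in place of -0.24. Psma3 (1.03), Psmc1 (-0.30), Ube2l3 (0.36) and Ube2s (0.15) kept their sign. That of Ube2v1 had a mean level of 4.03, below the dim limit of 5.78 (the 25th percentile of all tested probe sets), and is no check on this gene. With these probe sets 54 of 68 members lay higher, and the median over the Ube2 genes was 0.37.

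The promoters of the members were read for the letters of known regulators of proteasome and interferon-inducible genes. The RefSeq promoter table (GRCm38.p6, from 250 bases before to 50 after each start) held 57 of the 68 members. TGACNNNGC, the core of the antioxidant response element bound by Nfe2l1 and Nfe2l2, activators of proteasome genes, was sought on both strands. It occurred in 12 of the 57 members (21.1%) and in 14.0% of all 27025 genes in the table. CCGGAAGT, an ETS-type site, occurred in 10 (17.5%), against 4.31% of all genes. The interferon-stimulated response element, sought as TTTC, any 2 bases and TTTC again, occurred in 4 (7.02%), against 3.99%, and the gamma interferon activation site TTCNNNGAA in 5 (8.77%), against 9.55%. Members with the antioxidant letters had a median difference of 0.52 and those without 0.56. For the ETS-type letters the medians were 0.58 and 0.50, for the interferon-stimulated element 0.37 and 0.55, and for the gamma interferon site 0.61 and 0.55. A match of letters is a description and not a binding site.

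The stretches below show where these letters lie before the start of genes described above, 5′ to 3′ on the gene's strand, with the matched letters in capitals. Psmb5 (chr14:54617996-54618087, minus strand) and Psmb6 (chr11:70525303-70525356, plus strand) carry the antioxidant letters close to the start. Psmc6 (chr14:45329574-45329650, plus strand) carries them on the opposite strand, far upstream. Psmd6 (chr14:14120946-14121035, minus strand) and Ube2n (chr10:95515076-95515161, plus strand) carry the ETS-type letters. Psmb8 (chr17:34198053-34198151, plus strand) carries the gamma interferon letters, which read the same on both strands at their fixed positions.
Psmb5: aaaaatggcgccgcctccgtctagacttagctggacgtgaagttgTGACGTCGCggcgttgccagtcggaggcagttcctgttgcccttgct
Psmb6: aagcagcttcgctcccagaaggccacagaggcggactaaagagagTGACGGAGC
Psmc6: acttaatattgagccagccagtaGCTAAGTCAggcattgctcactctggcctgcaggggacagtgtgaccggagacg
Psmd6: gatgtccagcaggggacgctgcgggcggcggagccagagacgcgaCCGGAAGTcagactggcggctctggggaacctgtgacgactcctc
Ube2n: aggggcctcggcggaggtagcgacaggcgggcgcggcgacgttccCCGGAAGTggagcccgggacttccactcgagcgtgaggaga
Psmb8: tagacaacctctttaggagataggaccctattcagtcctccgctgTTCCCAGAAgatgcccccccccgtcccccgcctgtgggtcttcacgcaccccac
The genes shown were picked with their differences known and do not stand for the rest. Over the 12 members with the antioxidant letters the differences ran from -0.34 (Ube2ql1) to 1.66 (Psmb6), and over the 10 with the ETS-type letters from -0.22 (Psmc1) to 1.52 (Ube2n).

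The rest of the pathway lay the same way without a call. It was read only in the fit without array spread, where 44.6% of all probe sets, dim ones included, lay above 0. Whether these lists keep their direction in the fit with array spread was not tested. Of 4 E1 genes 3 lay higher (median 0.97), and none passed over all probe sets. The subunits of the NEDD8-activating enzyme, Uba3 and Nae1, lay at 1.45 and 1.40, Nae1 with the smallest p of the list (adjusted p = 0.673). Both were lowest in WT replicate 1 (5.50 and 4.75), and Uba3 in WT replicate 2 (9.15) lay above each Zeb2-KO array. All 12 measured proteasome partners and regulators lay higher (median 0.44), with the smallest p in Pomp, the maturation chaperone of the barrel (1.18, SE 0.44, adjusted p = 0.662). Of 15 genes of the cullin ligase core 11 lay higher (median 0.54), with Cand1, which exchanges the substrate receptors of cullin ligases, at 1.48 (SE 0.51, adjusted p = 0.656) and Fbxw7, a substrate receptor, at -0.60.

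Ligases of the HECT and RBR classes lay higher in 10 of 11 genes (median 0.49), Arih2 with the smallest p (1.40, adjusted p = 0.673). Deubiquitinases, which remove ubiquitin, lay higher in 21 of 27 (median 0.35), Usp15 with the smallest p (0.95, adjusted p = 0.662). The share with an unadjusted p under 0.05 was 1 of 4, 1 of 12, 2 of 15, 1 of 11 and 1 of 27 in these lists, where the background is 7.02%. MHC class I loading genes, which receive the peptides of the immunoproteasome, had a median of 0.25 over 4 genes, with the smallest p in Erap1, the trimming peptidase (0.48, adjusted p = 0.679), and Tap1, the peptide transporter beside Psmb8 and Psmb9 in the genome, at -0.13.

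**Figure D5:**
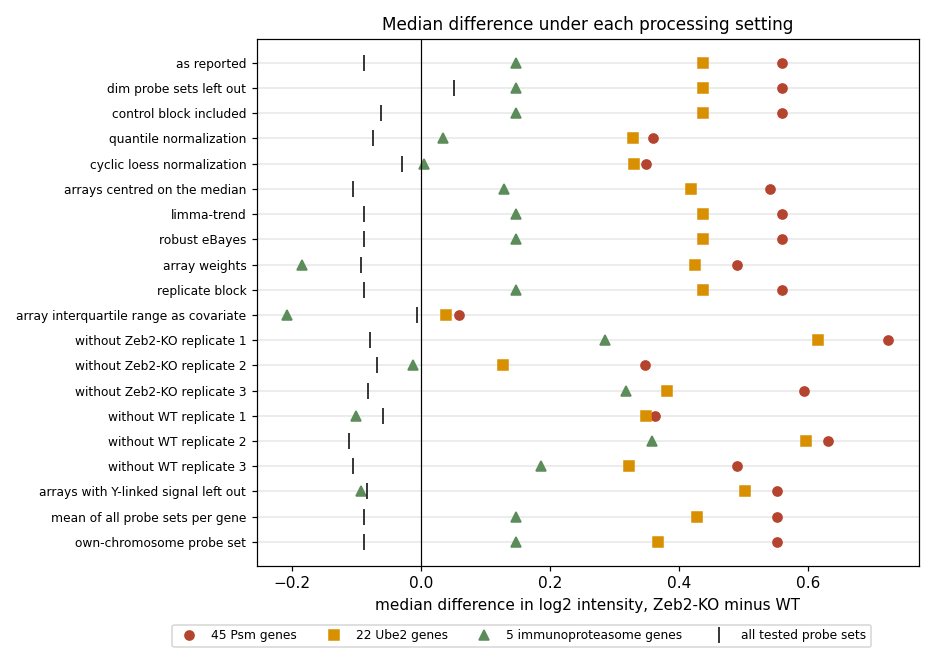
Median difference in log2 intensity (Zeb2-KO minus WT) of 3 gene groups and of all tested probe sets under each processing setting (rows). The Psm and Ube2 medians lie above 0 in every row and nearest to it with the array interquartile range as a covariate (0.058 and 0.039), and the immunoproteasome median lies below 0 in 5 rows.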

How the data were processed

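Per the labels' protocols, RNA of the sorted cells was amplified and hybridised with a biotin label, with 1 array for each marrow. Each deposited value is the intensity of a probe set on an array, which the authors made with RMA, per the submitters' processing notes. The RMA version, and whether values were scaled afterwards, is not given in the sources. The intensity values lie on a linear scale, so log2 was taken. Of 20220 probe sets, 5610 with identifiers below the first annotated one were left out and 14610 tested, of which 11229 carry 1 symbol, 766 several and 2615 none. Arrays have no read depth, and 3 per group limit the precision.

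Zeb2-KO was compared with WT in limma 3.58.1 (R 4.3.3, lmFit and eBayes). The residual degrees of freedom were 4 and those of the prior 6.87. P-values were adjusted by Benjamini-Hochberg across the 14610 probe sets and called below 0.05. The p-values rest on the spread between these samples, which limma moderates for each probe set with a prior drawn from all tested probe sets. The procedure was run on simulated data with independent noise per array and planted differences larger than any member's. Those data lack the spread shared within an array, so they do not show how the test behaves here. Members and lists were chosen with earlier results of these data known. Every member is named. Values per array are given for the 10 members with the smallest p, the immunoproteasome genes, Psmb5 to Psmb7 and the highest and lowest difference of each role. For the pathway lists the gene with the smallest p is named, and Uba3, Fbxw7 and Tap1 were added after their values were seen. Alternatives were a filter on dim probe sets (lowest 25%), the control block, quantile, cyclic loess and median scaling, a trended or robust prior, array weights, the replicate block, the array spread, each array left out and the mean of a gene's probe sets. Added after seeing the data were the own-chromosome probe set, leaving out both arrays with Y-linked signal, and the lists without Psme3ip1 or Ube2cbp. All 68 members passed the dim filter. Symbols without a probe set of their own, among them Psmc3, Psmf1, Ube2d3 and Ube2l6, were not analysed here.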

Additional observations from a re-analysis of the deposited data

How the results depend on the processing

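The count of all probe sets past the adjusted threshold, 2 as reported, was 978 with array weights, 1 with the array spread as a covariate or without the 2 arrays with Y-linked signal, and 2 to 18 with 1 array left out. Members past it numbered 0, except 11 with array weights. Members with an unadjusted p under 0.05, 14 as reported, numbered 7 with the control block included (5.5% of all probe sets), 8 with quantile normalization (6.29%), 8 with cyclic loess (6.96%), 36 with array weights (where 32.8% of all probe sets reached it), 6 with the array spread (5.13%) and 5 to 23 with 1 array left out (3.68% to 11.4%). The immunoproteasome median was -0.185 with array weights, -0.208 with the array spread, -0.094 without the Y-linked arrays and -0.101 to 0.357 with 1 array left out. The Psm median was 0.058 and the Ube2 median 0.039 with the array spread. With 1 array left out they ran from 0.346 to 0.724 and from 0.127 to 0.615. The cause of these shifts was not tested.

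With the replicate number as a block, 0 probe sets and 0 members passed, and 22 members (20 higher, 2 lower) had an unadjusted p under 0.05, where 17.8% of all probe sets did. Same-numbered arrays correlated at 0.360, 0.414 and 0.047 in their deviations from the group means, each best with its own number, a hint from the data and not from the design.

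Of the 68 members, 32 lay above 0 in some settings and below it in others. With the array spread 21 turned from higher to lower and 1 (Ube2o) the other way, among them Psme3 (0.80 to -0.06), Psmb1 (0.72 to -0.05), Psma5 (0.65 to -0.57), Ube2l3 (0.56 to -0.28) and Psmd12 (0.37 to -0.87). Psmg2 turned from 0.42 to -1.09 with array weights, -0.55 without the Y-linked arrays and -0.20 without WT replicate 1. Psma4 lay at -0.110 with quantile normalization, -0.178 with cyclic loess, -0.239 with array weights, -0.329 with the array spread and -0.258 without the Y-linked arrays. Psme2 lay at -0.185, -0.208 and -0.112 in the last 3, Ube2b at -0.076 with cyclic loess, -0.714 with the spread and -0.063 without the Y-linked arrays, Ube2a at -0.436 and Psmc3ip at -0.073 with the spread, Psmd9 at -0.075 with array weights, and Ube2j1 at 0.309 with array weights and 0.180 without the Y-linked arrays. With 1 array left out Psma4 ran from -0.247 to 0.369, Psmb3 from -0.554 to 0.069, Psmb9 from -0.571 to 0.351, Psmc1 from -0.637 to 0.227, Psmd3 from -0.302 to 0.196, Psmd9 from -0.010 to 0.324, Psme2 from -0.101 to 0.357, Ube2a from -0.065 to 0.493, Ube2b from -0.390 to 0.620 and Ube2j1 from -0.281 to 0.075.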
